A study of Mus musculus with 5 samples.

Results

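The B lineage genes described here are 31 mouse genes that encode the antigen receptor of B cells, its signalling proteins, the transcription factors that set up the B cell programme and receptors of the B cell surface. They were chosen by gene symbol, with earlier results of these libraries known, and each was found once in both kinds of deposited table. They make up 31 of 38166 features in the knockdown tables and 31 of 34315 features in the granulocyte tables. Because the knockdown values were known when the genes were chosen, their differences between libraries are given as a description.

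B cells form in the bone marrow from lymphoid progenitors, in which Ebf1 and Pax5 switch on B cell genes and shut out other fates. A precursor B cell first carries a receptor made of the heavy chain and a surrogate light chain (Vpreb1, Vpreb2 and Igll1), and a mature B cell carries a complete immunoglobulin, in both cases held by the signalling subunits Cd79a and Cd79b. Maturing cells then add coreceptors that tune the receptor signal, such as Cd22, and receptors for survival and homing, such as Tnfrsf13c and Cxcr5. Some of the genes are used outside B cells as well: Spib and Bcl11a in plasmacytoid dendritic cells, and Bcl11a in blood progenitors.

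The 5 libraries of polyA-selected RNA came from C57BL/6 mice. The LncHSC-1 knockdown, LncHSC-2 knockdown and control knockdown groups had 1 library each, all from KSL cells, which are c-Kit+, Sca-1+ and lineage-negative blood stem and progenitor cells. For all these groups, Sca-1+ cells of mice injected with 5-FU, a drug that kills dividing cells, were transduced with a GFP retrovirus, cultured for 2 days with 10 ng/ml mSCF and 100 ng/ml mTPO, and sorted as GFP+ KSL cells. Apart from the control virus, each virus targeted a long non-coding RNA, either LncHSC-1 or LncHSC-2, and the comparison with control asked which genes depend on them. The granulocyte group was Gr1+ bone marrow of 12-month-old mice, sequenced as 2 technical replicates of 1 biological sample. B cell libraries, which the series design names, were not analysed here, and neither was the extent of each knockdown. With 1 biological sample per group there was no replicate error and no test of a condition, so no p-value is given and each difference is one between libraries.

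Estimated depths were 24.1, 19.9 and 21.0 M reads in the LncHSC-1, LncHSC-2 and control libraries, and the granulocyte tables summed to 40414961 and 40394825 scaled and rounded counts. The sort marker Ly6a, which encodes Sca-1, stood at 1211, 1025 and 1010 FPKM (fragments per kilobase of transcript per M reads) in the LncHSC-1, LncHSC-2 and control libraries. Kit stood at 59.1, 62.0 and 67.6 FPKM and the progenitor gene Cd34 at 204, 237 and 229 FPKM in the same libraries. The granulocyte libraries held the neutrophil genes S100a8 at 55377 and 57405 FPKM and S100a9 at 60165 and 61249 FPKM, while Cd34 was at 0.834 and 1.04 FPKM. The typical feature hardly differed between KSL libraries: of the 9153 features with a mean of at least 5 FPKM over the 3 libraries, 97.8% lay within 1.5-fold between the LncHSC-1 and control libraries and 98.2% between the LncHSC-2 and control libraries.

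B lineage transcripts were present at low to moderate level in all 3 KSL libraries, and most were higher in the LncHSC-1 library. By depth-corrected reads, Pax5, Fcrl1, Cxcr5, Fcer2a, Pou2af1, Blnk, Fcrl5, Cd22 and Spib were at least 2-fold higher than in control, at 2.10-fold to 2.87-fold. In the LncHSC-2 library the same genes were also above control but by less, from 1.06-fold for Cd22 to 1.52-fold for Cxcr5. Of these genes, counting intervals there excluded equality with control only for Spib, Pou2af1 and Cxcr5. The genes were picked by their ratio to this same control library, whose values enter both ratios, so nothing is read from the shared direction. Of all 29 genes with at least 20 summed reads, 18 were higher in the LncHSC-2 library, beside 50% of all features. Cd72 and Cd180, which were among the most abundant of the set, were close to control in both knockdown libraries. The likewise abundant Bcl11a was near control by FPKM in the LncHSC-1 library and lower in the LncHSC-2 library, with an FPKM ratio of −0.24. By depth-corrected reads it was slightly below control in both. Each surrogate light chain gene, and Vpreb3, had at most 10 reads in a library. Over the 31 genes, FPKM summed to 255 in the LncHSC-1 library, 176 in the LncHSC-2 library and 173 in the control library, with medians of 3.44, 2.06 and 2.31 FPKM. At least 5 FPKM was reached by 13, 9 and 9 of the genes in the same libraries, while the share of all features at that level was 24.0%, 23.9% and 23.9%. In bulk RNA, more cells of a type and more RNA per cell cannot be told apart.

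**Figure D1:**
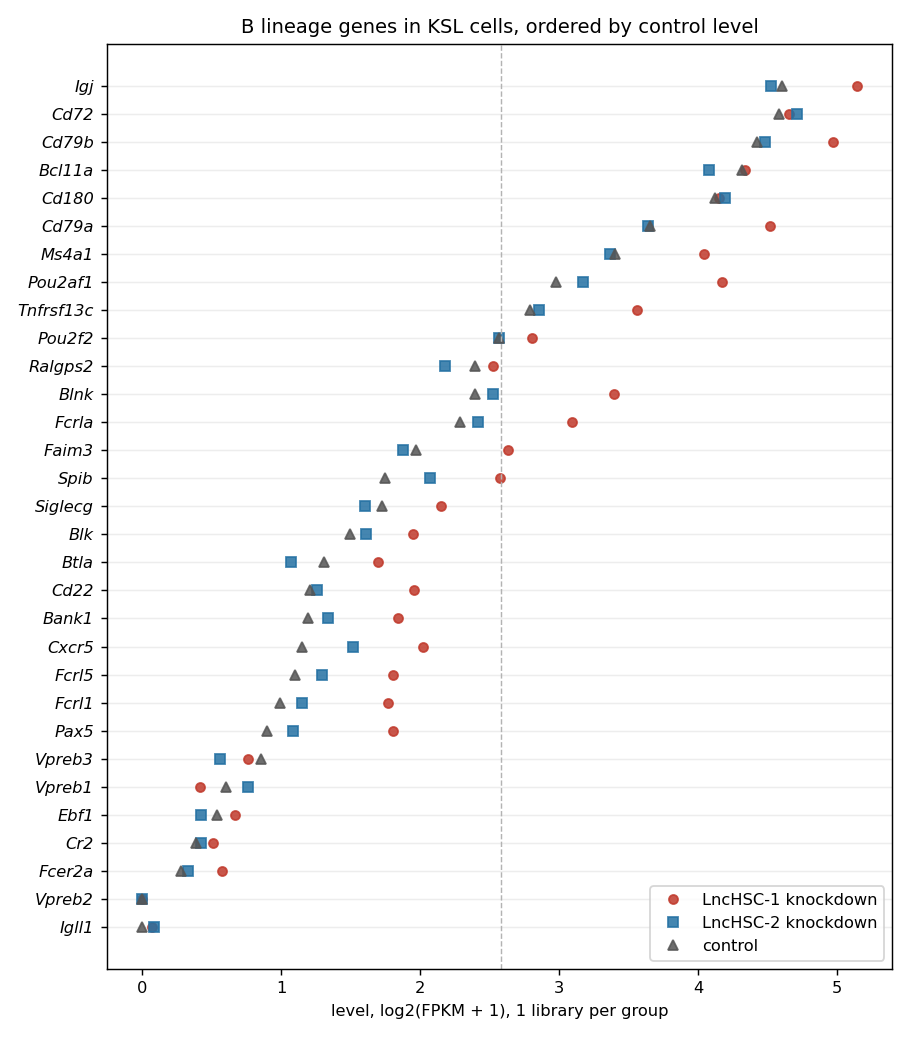
Level of each of the 31 B lineage genes as log2 of FPKM + 1 in the LncHSC-1, LncHSC-2 and control knockdown libraries of KSL cells, 1 point per library, genes ordered by control level, with the dashed line at 5 FPKM. Most genes lie further right in the LncHSC-1 library, at a summed 255 FPKM against 173 FPKM in control, while Cd72 and Cd180 have nearly equal points and Bcl11a is lowest in the LncHSC-2 library.

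Differences are given on 2 scales, since many of the genes were low. The FPKM ratio is the log2 ratio of FPKM + 1 and was counted over the 12 genes at the floor of 5 mean FPKM; the pseudocount makes the ratio of a low gene too small. The read ratio is the log2 ratio of estimated reads corrected for relative depth, with no pseudocount, and was counted over the 29 genes with at least 20 reads summed over the 3 libraries. Its exact binomial (Clopper-Pearson) 95% interval covers counting error only and says nothing about variation between animals or cultures. Of the 19 genes below the floor, Ralgps2 came closest at a mean of 4.19 FPKM, and just inside stood Fcrla at 5.25 and Pou2f2 at 5.27 FPKM. Blnk, Fcrla and Pou2f2 were below 5 FPKM in the LncHSC-2 and control libraries and reached the floor through the LncHSC-1 library.

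Between the LncHSC-1 and control libraries, 12 of the 12 genes at the floor had a higher FPKM in the LncHSC-1 library, where 43.8% of all features at the floor did. The FPKM ratio reached 2-fold for Blnk and Pou2af1, 2 of 12 genes, where 0.634% of all features at the floor were at least 2-fold higher. By reads, 26 of 29 genes were higher in the LncHSC-1 library, beside 48.5% of all features with enough reads. A read ratio of at least 2-fold was found for 9 of 29 genes (Blnk, Pax5, Spib, Pou2af1, Cd22, Fcrl1, Fcrl5, Fcer2a and Cxcr5), beside 2.86% of all such features. None of the genes at the floor was at least 2-fold lower, beside 0.426% of all features at the floor. Since the genes were chosen with this contrast known, nothing is read from these counts against the shares of all features. The median FPKM ratio was 0.59 over the 12 genes at the floor and ran from 0.02 to 1.19, and it was −0.02 over all features at the floor.

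Counting intervals of the read ratio lay above 0 for 22 of the 29 genes, beside 13.9% of all features with enough reads, and below 0 for Bcl11a, beside 18% of all such features. They lay across 0 for Vpreb1, Vpreb3, Ebf1, Cd72, Cr2 and Cd180. Summed over the 31 genes, the LncHSC-1 library held 15131 reads and the control library 9234 reads, a pooled read ratio of 0.49 (0.45 to 0.53), or 1.41-fold after the correction for depth. The 19 genes below the floor held 3494 and 1884 of these reads in the LncHSC-1 and control libraries, with a pooled ratio of 0.67 (0.59 to 0.75), and the 12 genes at the floor had one of 0.44. Both pooled ratios were positive. The genes were chosen with this contrast known, and Blnk, Fcrla and Pou2f2 reached the floor through the LncHSC-1 library, so nothing is read from that likeness.

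**Figure D2:**
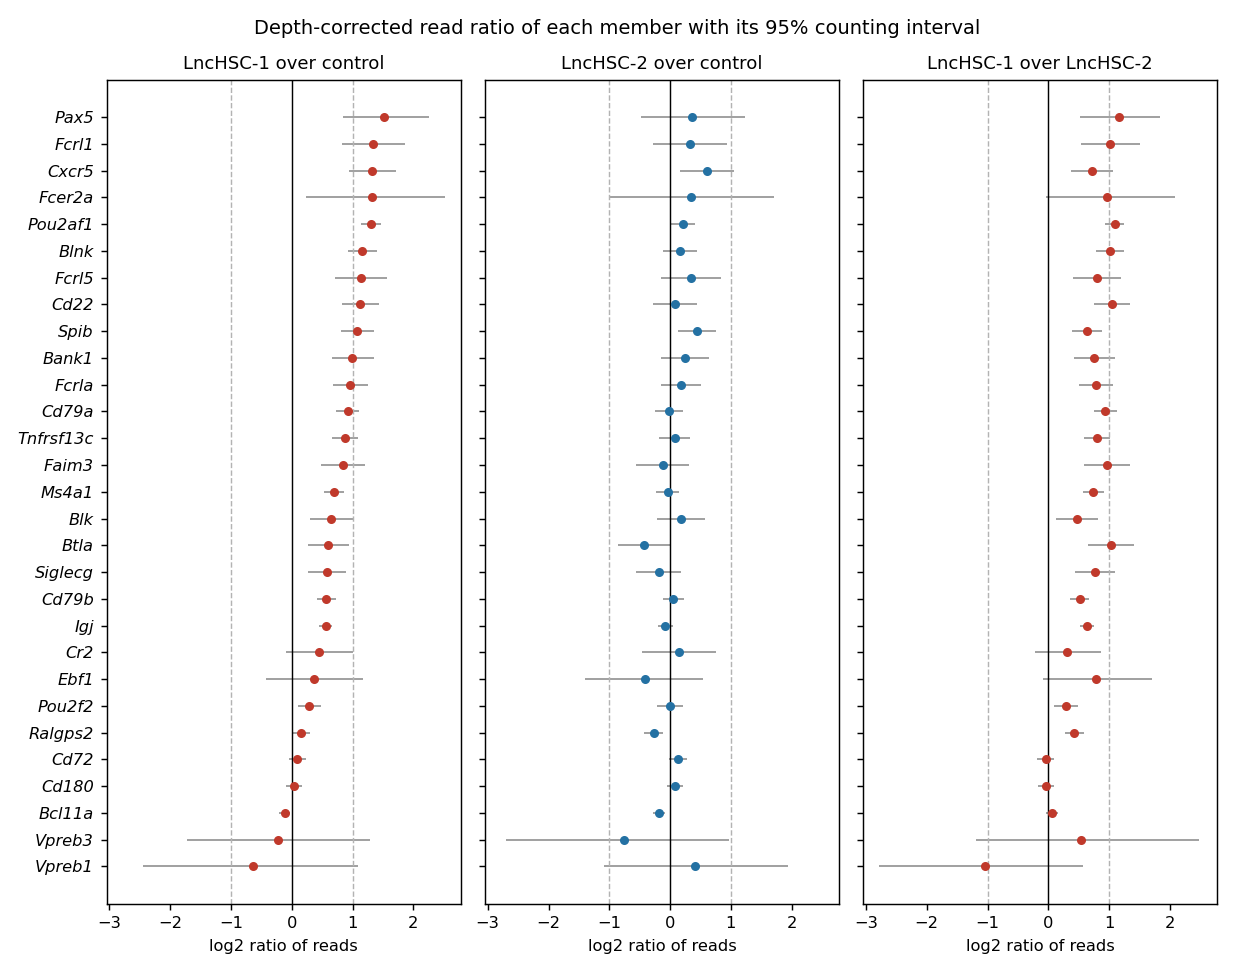
Log2 ratio of depth-corrected reads for the genes with at least 20 reads, in 3 panels for LncHSC-1 over control, LncHSC-2 over control and LncHSC-1 over LncHSC-2, with exact 95% intervals for counting error only as bars and 2-fold as dashed lines (1 library per group). Above 0 lie 22 of 29 intervals for LncHSC-1 over control, 3 for LncHSC-2 over control and 21 for LncHSC-1 over LncHSC-2.

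The receptor group, in which Igj is counted, had the highest summed FPKM of the role groups, and Igj was its most abundant gene. Cd79a, the alpha signalling subunit (mm9 chr7:25682530-25687216), stood at 22.0 FPKM in the LncHSC-1 library, 11.5 FPKM in the LncHSC-2 library and 11.6 FPKM in the control library, from 756, 320 and 343 reads. The LncHSC-1 library was thus high and the others nearly equal, with read ratios to control of 0.92 (0.73 to 1.11) for LncHSC-1 and −0.02 (−0.24 to 0.21) for LncHSC-2. Its partner Cd79b (mm9 chr11:106172655-106175843) stood at 30.4 FPKM in the LncHSC-1 library, 21.3 FPKM in the LncHSC-2 library and 20.5 FPKM in the control library. That is the same order of libraries with a smaller step, a read ratio of 0.57 (0.41 to 0.72) for LncHSC-1 over control. Igj, the joining chain that links secreted IgM and IgA units, stood at 34.3 FPKM in the LncHSC-1 library, 22.1 FPKM in the LncHSC-2 library and 23.4 FPKM in the control library. Its read ratios were 0.55 (0.45 to 0.66) for LncHSC-1 over control and −0.08 (−0.21 to 0.04) for LncHSC-2 over control.

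The surrogate light chain and its relative Vpreb3, a protein of the secretory pathway that binds heavy chains in precursor cells, were at or near the detection limit. Vpreb1 had 6, 10 and 8 reads in the LncHSC-1, LncHSC-2 and control libraries, and Vpreb3 had 9, 5 and 9 reads. Igll1 had 1, 1 and 0 reads in those libraries. Vpreb2 had 0 reads in all 3, which allows up to 0.124, 0.150 and 0.143 reads per M in the LncHSC-1, LncHSC-2 and control libraries (3 reads of the estimated depth, counting error only). Together the 4 genes had 16 reads in the LncHSC-1 library, 16 in the LncHSC-2 library and 17 in the control library, with a pooled ratio of −0.31 (−1.39 to 0.77) for LncHSC-1 over control. This interval is wide on either side of 0. It holds the ratios of Cd79b, 0.57, and Igj, 0.55, so these few reads do not set the 4 genes apart from Cd79b and Igj. The ratio of Cd79a, 0.92, lies above its upper bound. The interval of Cd79a, 0.73 to 1.11, overlaps it, and the difference from Cd79a was not tested. Reads of Vpreb1 and Vpreb2 are also uncertain as to their source, since the annotated transcripts were 97.4% identical over 759 aligned bases and 32.8% of the 50-base windows of Vpreb2 also occurred in Vpreb1.

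Among the proteins that pass the receptor signal on, Blnk differed most. Blnk, the adaptor that links the kinase Syk to downstream enzymes (mm9 chr19:41003417-41069025), stood at 9.53 FPKM in the LncHSC-1 library, 4.75 FPKM in the LncHSC-2 library and 4.26 FPKM in the control library. Its reads were 545, 220 and 209 in those libraries, which gave read ratios of 1.16 (0.93 to 1.40) for LncHSC-1 over control and 0.16 (−0.12 to 0.44) for LncHSC-2 over control. The LncHSC-1 library was therefore the high one, and the interval of the LncHSC-2 ratio held 0. Bank1, a scaffold protein of B cell signalling, stood at 2.58, 1.53 and 1.29 FPKM and the kinase Blk, of the Src family, at 2.85, 2.06 and 1.82 FPKM in the LncHSC-1, LncHSC-2 and control libraries. Their read ratios for LncHSC-1 over control were 1.00 (0.65 to 1.35) for Bank1 and 0.64 (0.30 to 1.00) for Blk. Ralgps2, an exchange factor for Ral GTPases, had the smallest step of the group, at 4.75, 3.54 and 4.27 FPKM in the LncHSC-1, LncHSC-2 and control libraries. Of this group it had the only LncHSC-2 interval below 0, at −0.27 (−0.43 to −0.11) over control.

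Transcription factors of the lineage split into genes that were high in the LncHSC-1 library and genes that were not. Pou2af1, the B cell coactivator of octamer-binding factors (mm9 chr9:51021795-51048184), stood at 17.0 FPKM in the LncHSC-1 library, 8.0 FPKM in the LncHSC-2 library and 6.89 FPKM in the control library. With 1210, 461 and 420 reads it had a read ratio of 1.31 (1.14 to 1.47) for LncHSC-1 over control and 0.22 (0.02 to 0.41) for LncHSC-2 over control. Its FPKM ratio for LncHSC-1 over control, 1.19, ranked 41 of the 9153 features at the floor and 5 among the 7993 with a gene name. Pax5, the commitment factor (mm9 chr4:44544378-44723312), had the largest read ratio of the set at 1.52, from 77 reads in the LncHSC-1 library, 28 in the LncHSC-2 library and 23 in the control library. These few reads left a wide interval, 0.83 to 2.26, and the level was low at 2.49, 1.12 and 0.867 FPKM in the LncHSC-1, LncHSC-2 and control libraries. Spib, an Ets factor of B cells and plasmacytoid dendritic cells, had 385, 201 and 157 reads in the LncHSC-1, LncHSC-2 and control libraries. It was higher than control in both knockdown libraries, with read ratios of 1.07 (0.80 to 1.35) for LncHSC-1 and 0.44 (0.13 to 0.75) for LncHSC-2.

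Ebf1, which acts with Pax5 and precedes it in B cell development, was low, with 36, 17 and 24 reads in the LncHSC-1, LncHSC-2 and control libraries. Its read ratio for LncHSC-1 over control was 0.36 and its interval, −0.42 to 1.17, held 0. Pou2f2, the octamer-binding factor Oct2, stood at 5.99, 4.92 and 4.91 FPKM in the LncHSC-1, LncHSC-2 and control libraries, a small step with a read ratio of 0.28 (0.09 to 0.47) for LncHSC-1 over control. Bcl11a, a zinc finger factor that B cell development requires and that progenitors also express, had the most reads of the set, 1915 in the LncHSC-1 library, 1488 in the LncHSC-2 library and 1786 in the control library. Its direction for LncHSC-1 over control differed between the scales, with an FPKM ratio of 0.02 and a read ratio of −0.12 (−0.21 to −0.03). Both were small beside those of Pou2af1 or Pax5. For LncHSC-2 over control the read ratio of Bcl11a was −0.18 (−0.28 to −0.08). For LncHSC-1 over LncHSC-2 its FPKM ratio was 0.26, while its read ratio was 0.06 with an interval that held 0, −0.04 to 0.16.

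The base sequences before the gene starts were searched for the sites of 3 factor families of this group, on both strands, in the 250 bases before each start in the RefSeq promoter table (build GRCm38.p6). Of the 31 genes, 27 were matched, with 33 windows; Cd79b, Blk, Ms4a1 and Cxcr5 had no entry. The octamer ATGCAAAT, the site of Pou2f2 and its coactivator Pou2af1, was found in 2 of 33 windows (6.06%), those of Blnk and Vpreb3, and in 1.60% of all 32851 windows. The core CCCNNGGG bound by Ebf1 was found in 4 of 33 windows (12.1%), those of Bank1, Cd22, Igll1 and Spib, and in 11.8% of all windows. The motif GAGGAAGT, bound by PU.1 and Spib, was found in 3 of 33 windows (9.09%), those of Btla, Cd72 and Fcrl1, and in 2.44% of all windows. The following stretches of 90 bases, on the gene's own strand, show each motif in capitals as read on that strand (the octamer and the PU.1 and Spib motif in their reverse complement), in genes of contrasting level and difference.
Blnk, octamer 130 bases before the start, chr19:40994303-40994392, minus strand: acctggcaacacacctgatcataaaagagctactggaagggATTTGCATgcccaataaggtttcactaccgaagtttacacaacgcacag
Vpreb3, octamer 45 bases before the start, chr10:75948210-75948299, plus strand: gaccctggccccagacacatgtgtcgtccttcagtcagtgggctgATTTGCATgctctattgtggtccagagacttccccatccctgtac
Cd22, Ebf1 core 48 bases before the start, chr7:30879029-30879118, minus strand: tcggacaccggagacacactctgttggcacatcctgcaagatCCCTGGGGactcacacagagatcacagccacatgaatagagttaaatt
Fcrl1, PU.1 and Spib motif 15 bases before the start, chr3:87376297-87376386, plus strand: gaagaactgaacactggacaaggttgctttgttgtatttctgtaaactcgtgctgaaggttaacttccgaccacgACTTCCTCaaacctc
Cd72, PU.1 and Spib motif 49 bases before the start, chr4:43454627-43454716, minus strand: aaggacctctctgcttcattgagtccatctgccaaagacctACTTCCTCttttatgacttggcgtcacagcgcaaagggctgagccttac
The octamer thus stood before Blnk, with 974 reads over the KSL libraries, and Vpreb3, with 23 reads. The PU.1 and Spib motif stood before Fcrl1, with a read ratio of 1.33 for LncHSC-1 over control, and Cd72, with one of 0.09. A match in these windows is a run of letters and was not tied to binding in these cells.

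Coreceptors of the B cell surface ranged from a read ratio of 0.09 for Cd72 to 1.33 for Fcrl1, for LncHSC-1 over control. Cd22, an inhibitory lectin that binds sialic acid (mm9 chr7:31650423-31665361), had 333, 131 and 131 reads in the LncHSC-1, LncHSC-2 and control libraries, at 2.87, 1.39 and 1.31 FPKM. Its read ratios were 1.12 (0.83 to 1.43) for LncHSC-1 over control and 0.08 (−0.28 to 0.44) for LncHSC-2 over control, so that the LncHSC-1 library alone was high. Siglecg, an inhibitory lectin of the same family, stood at 3.44, 2.03 and 2.31 FPKM in the LncHSC-1, LncHSC-2 and control libraries, with a read ratio of 0.57 (0.26 to 0.89) for LncHSC-1 over control. Btla, an inhibitory receptor shared with T cells, had 203, 81 and 115 reads in the LncHSC-1, LncHSC-2 and control libraries. It was high in the LncHSC-1 library, at 0.60 (0.26 to 0.94) over control, and lowest in the LncHSC-2 library, at −0.42 over control, with an interval that ended just below 0. Cd72, an inhibitory receptor with a lectin-like domain, stood apart at 24.2, 25.2 and 22.9 FPKM in the LncHSC-1, LncHSC-2 and control libraries. Its read ratio of 0.09 (−0.05 to 0.23) for LncHSC-1 over control had an upper bound far below the ratio of Cd22. The position of Cd72 overlaps that of Tesk1, which had 625, 484 and 492 reads in the LncHSC-1, LncHSC-2 and control libraries, and the share of reads that belongs to each cannot be settled from the tables. The overlaps of Ralgps2 and Fcrl5 with other features involved at most 10 reads of those features in a library.

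The Fc receptor-like genes had similar read ratios. Fcrl1 (mm9 chr3:87180309-87196055), whose product carries activating motifs, had 129, 52 and 44 reads in the LncHSC-1, LncHSC-2 and control libraries. Its neighbour Fcrl5 had 169, 79 and 66 reads in the same libraries, and Fcrla, which stays inside the cell, had 335, 158 and 148. For LncHSC-1 over control the read ratios were 1.33 (0.83 to 1.86) for Fcrl1, 1.14 (0.72 to 1.57) for Fcrl5 and 0.96 (0.67 to 1.25) for Fcrla, with the LncHSC-1 library highest each time. The 3 intervals of LncHSC-2 over control held 0, around ratios of 0.32, 0.34 and 0.18. Cr2, a complement receptor, had 75, 49 and 47 reads and Fcer2a, the low-affinity IgE receptor of mature B cells, had 29, 12 and 10 reads in the LncHSC-1, LncHSC-2 and control libraries. Their read ratios for LncHSC-1 over control were 0.45 (−0.09 to 1.01) for Cr2 and 1.31 (0.24 to 2.52) for Fcer2a, and the small counts leave both sizes uncertain.

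Of the other surface receptors, 4 were higher in the LncHSC-1 library and 1 was level. Ms4a1, the surface protein CD20 (mm9 chr19:11325093-11340641), stood at 15.5 FPKM in the LncHSC-1 library, 9.30 FPKM in the LncHSC-2 library and 9.55 FPKM in the control library, with a read ratio of 0.70 (0.53 to 0.86) for LncHSC-1 over control. Tnfrsf13c, the receptor for the survival factor BAFF, stood at 10.8, 6.23 and 5.90 FPKM in the LncHSC-1, LncHSC-2 and control libraries, with a read ratio of 0.88 (0.66 to 1.09) for LncHSC-1 over control. Faim3, an Fc receptor for IgM, stood at 5.19, 2.67 and 2.91 FPKM in those libraries, with a read ratio of 0.84 (0.48 to 1.2) for LncHSC-1 over control. In these genes the LncHSC-1 library was the high one and the others lay close together. Cxcr5, the homing receptor for B cell follicles (mm9 chr9:44319870-44334504), had 221, 109 and 76 reads in the LncHSC-1, LncHSC-2 and control libraries. It was above control in both knockdown libraries, with read ratios of 1.32 (0.94 to 1.71) for LncHSC-1 and 0.60 (0.17 to 1.04) for LncHSC-2. Cd180, a relative of the Toll-like receptors on B cells and some myeloid cells, stood level at 16.8, 17.3 and 16.4 FPKM in the LncHSC-1, LncHSC-2 and control libraries, with a read ratio of 0.04 (−0.09 to 0.17) for LncHSC-1 over control.

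By role group, the pooled read ratio for LncHSC-1 over control was 0.62 (0.54 to 0.70) for the 7 genes of the receptor group. Of the 3669 reads of that group in the LncHSC-1 library, 1967 were from Igj. Pooled ratios were 0.52 (0.42 to 0.63) for the 4 signalling genes and 0.36 (0.29 to 0.43) for the 6 transcription factor genes. They were 0.53 (0.44 to 0.63) for the 9 coreceptor genes and 0.49 (0.40 to 0.57) for the 5 other receptors. In the LncHSC-1 library Bcl11a gave 1915 of the 4175 transcription factor reads. Cd72 gave 927 of the 2436 coreceptor reads and Cd180 1074 of the 2925 other receptor reads. Such genes weigh most in a pooled ratio. Median read ratios of the genes with enough reads were 0.55 for the receptor group, 0.82 for signalling and 0.72 for transcription factors. They were 0.96 for coreceptors and 0.84 for other receptors, so the order of the groups depends on the measure. Every role group therefore had a positive pooled ratio, and each also held a gene with a read ratio of at most 0.16: Vpreb3, Ralgps2, Bcl11a, Cd72 and Cd180.

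**Figure D3:**
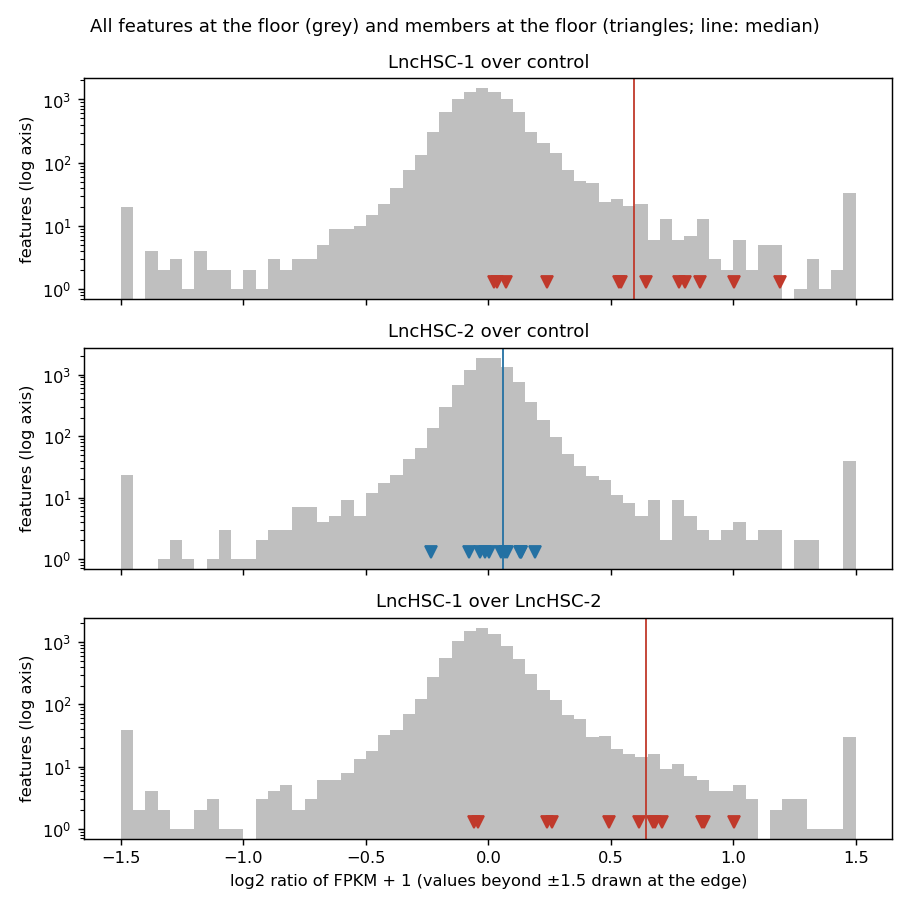
Histograms of the log2 ratio of FPKM + 1 over all 9153 features at the floor (grey, number of features on a log axis), with the 12 B lineage genes at the floor as triangles and their median as a line, 1 panel per comparison. For LncHSC-1 over control the triangles run from 0.02 to 1.19 around a median of 0.59, and for LncHSC-2 over control from −0.24 to 0.19 around 0.06.

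The LncHSC-2 library differed little from control in these genes. Of the 12 genes at the floor, 8 had a higher FPKM in the LncHSC-2 library, beside 52.1% of all features, and 0 were at least 2-fold higher, beside 0.601% of all features. By reads, 18 of 29 genes were higher in the LncHSC-2 library, beside 50% of all features, and 0 were at least 2-fold higher, beside 1.66%. The median FPKM ratio over the 12 genes was 0.06 and ran from −0.24 to 0.19, and the median over all features at the floor was 0.00. Pooled over the 31 genes, 8695 reads in the LncHSC-2 library stood against 9234 in the control library, a read ratio of −0.01 (−0.05 to 0.04). Intervals lay above 0 for 3 of 29 genes (Spib, Pou2af1 and Cxcr5), beside 10% of all features, and below 0 for 3 of 29 (Ralgps2, Bcl11a and Btla), beside 10.4% of all features. These shares of the genes were near those of all features, and the other 23 intervals held 0. This comparison uses the same control library as the one for LncHSC-1, so values of that library enter both.

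The knockdown libraries were also set directly against each other, with the control library entering only the floor and the read minimum. They differed by about as much as the LncHSC-1 library did from control. Of the 12 genes at the floor, 10 had more FPKM with LncHSC-1 knocked down than with LncHSC-2 knocked down, beside 40.4% of all features, and Pou2af1 alone reached 2-fold, beside 0.535% of all features. By reads, 26 of 29 genes were higher in the LncHSC-1 library, beside 47.1% of all features, and 6 were at least 2-fold higher (Blnk, Pax5, Pou2af1, Cd22, Btla and Fcrl1), beside 2.81%. The pooled read ratio was 0.50 (0.46 to 0.53), and 21 of 29 intervals lay above 0, beside 12.6% of all features, with 0 of 29 below 0, beside 16.5% of all features. Btla had its largest ratio here, 1.02 (0.64 to 1.41) for LncHSC-1 over LncHSC-2, since its LncHSC-2 value was the lowest. Vpreb1 was the gene at least 2-fold lower in the LncHSC-1 library, on 6 reads against 10 in the LncHSC-2 library, with an interval of −2.78 to 0.56.

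Other genes of the pathway, with the 31 genes taken out, were split between the directions or near control. Counts of list genes that were higher in the LncHSC-1 library relative to control, here and below, stand beside 43.8% of all features at the floor. Of 29 genes of general pre-B and B cell receptor signalling, 23 were at the floor, and 11 of these were higher and 12 lower in the LncHSC-1 library relative to control, with a median FPKM ratio of −0.01. Pik3ap1, an adaptor for the lipid kinase PI3K, stood at 14.3, 10.8 and 10.5 FPKM in the LncHSC-1, LncHSC-2 and control libraries. A list of 26 regulators of the lineage had 12 genes at the floor, of which 8 were higher and 4 lower in the LncHSC-1 library relative to control, with a median FPKM ratio of 0.02. Of 19 lymphoid priming genes, 8 were at the floor, and 7 of these were higher and 1 lower in the LncHSC-1 library, with a median of 0.09. Genes for the start of V(D)J recombination were at or near 0: Rag1 was at 0.0104, 0 and 0 FPKM and Rag2 at 0.147, 0.168 and 0.208 FPKM in the LncHSC-1, LncHSC-2 and control libraries. Il7r, the receptor on which mouse B cell precursors depend, stood at 1.11, 0.753 and 0.582 FPKM in the same libraries.

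A merged feature of the immunoglobulin heavy chain locus, which carries 14 names and was chosen after its values were seen, had 5620, 3112 and 3277 reads in the LncHSC-1, LncHSC-2 and control libraries. Its read ratios were 0.56 (0.49 to 0.62) for LncHSC-1 over control and 0.01 (−0.06 to 0.08) for LncHSC-2 over control, with the LncHSC-1 library highest as for Cd79b and Igj. On the FPKM scale the ratios were 0.81 and −0.18 for the same comparisons. Its position differed between the deposited tables, and reads of its repeated segments cannot be assigned to single genes. Among 12 plasma cell genes found, 6 were at the floor, with a median FPKM ratio of 0.24. Of those, 6 were higher in the LncHSC-1 library relative to control, beside 43.8% of all features at the floor.

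Genes of other blood cell types differed between the same libraries, and their part in the values of the B lineage genes was not tested. The sort took lineage-negative cells, and the labels do not name the antibodies of that gate. All 8 antigen presentation genes of class II at the floor, of 10 found, were higher in the LncHSC-1 library relative to control. Their median FPKM ratio was 0.44, and 43.8% of all features at the floor were higher. Summed over the 10 genes, FPKM was 407, 295 and 269 in the LncHSC-1, LncHSC-2 and control libraries, and H2-Aa, a chain of the class II molecule, stood at 51.3, 29.5 and 27.4 FPKM. Of 15 monocyte and macrophage genes found, 5 were at the floor and 5 of those were higher, with a median ratio of 0.44 and summed levels of 260, 178 and 167 FPKM in the LncHSC-1, LncHSC-2 and control libraries. Ly6c2, a monocyte surface gene, differed more on the FPKM scale than any B lineage gene at the floor, with 101, 42.3 and 32.5 FPKM in these libraries, an FPKM ratio of 1.60 for LncHSC-1 over control. Ly86, also of this list, stood at 10.8, 7.71 and 6.42 FPKM in the same libraries. Genes of the list below the floor were mixed. Cd86 stood at 4.31, 2.90 and 2.74 FPKM, while Csf1r, which defines monocytes and macrophages, was nearly level at 2.31, 2.09 and 2.24 FPKM. Marco was at 0 in all 3.

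Of 17 plasmacytoid dendritic cell genes, with Spib and Bcl11a taken out, 8 were at the floor, with a median FPKM ratio of 0.51. In the LncHSC-1 library 7 of these were higher relative to control, beside 43.8% of all features at the floor. FPKM of the list summed to 1529, 1205 and 1131 in the LncHSC-1, LncHSC-2 and control libraries. Ly6d, a surface marker of early B lineage commitment that the lymphoid priming list also holds, stood at 60.3, 29.7 and 27.5 FPKM in these libraries, while Siglech, a defining gene of plasmacytoid dendritic cells, was at 3.0, 2.07 and 2.22 FPKM. T and NK cell genes had 4 of 21 at the floor, of which 3 were higher and 1 lower, and summed to 109, 95.8 and 101 FPKM in the LncHSC-1, LncHSC-2 and control libraries. Of these list genes, Thy1 stood at 9.87, 5.55 and 6.44 FPKM and Lck at 6.39, 4.56 and 4.91 FPKM in the same libraries. Cd3e, which every T cell uses, was at 0, 0 and 0.0310 FPKM there. Granulocyte genes had 3 of 6 higher in the LncHSC-1 library relative to control, at summed levels of 141, 128 and 143 FPKM. Stem and progenitor genes had 6 of 14 higher, at 2208, 2011 and 2029 FPKM. For LncHSC-2 over control, the medians of all 10 lists lay between −0.15 for granulocyte genes and 0.10 for class II genes.

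The genes whose pattern over the 3 KSL libraries lay closest to the median of the B lineage genes at the floor were Gbp5, Sdc3, Scd1, Ctss and Tpst1, by Euclidean distance of centred log2 FPKM. Gbp5, an interferon-induced GTPase, stood at 17.6, 11.2 and 11.2 FPKM and Ctss, the lysosomal protease cathepsin S, at 76.3, 48.2 and 49.0 FPKM in the LncHSC-1, LncHSC-2 and control libraries. With 3 values per gene, likeness of this kind is a description only.

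In granulocytes, most B lineage genes were low, as most features were. Siglecg and Igj were the 2 of 31 genes at or above 5 FPKM (6.45%), where 6057 of 34315 features (17.7%) reached that level. At least 1 FPKM was reached by 8 of the 31 genes (25.8%) and by 29.3% of all features, and 20 of the 31 (64.5%) were below 0.5 FPKM, beside 66.2% of all features. Siglecg stood at 9.20 and 9.34 FPKM and Igj at 7.01 and 7.83 FPKM in technical replicates 1 and 2. Cd180 followed at 4.53 and 4.90 FPKM, Fcrl1 at 4.66 and 4.0 FPKM and Bank1 at 4.11 and 4.06 FPKM in the same replicates. The genes that define the lineage were low: Cd79a was at 0.681 and 0.953 FPKM, Ms4a1 at 0.146 and 0.0976 FPKM, and Pax5 at 0.0835 and 0.117 FPKM. The median was 0.272 FPKM over the 31 genes and 0.0337 FPKM over all features, and their FPKM summed to 39.9 and 39.5 in the replicates. Since the granulocyte FPKM were made with a fixed divisor and in a different experiment, no fold against the KSL cells is given.

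**Figure D4:**
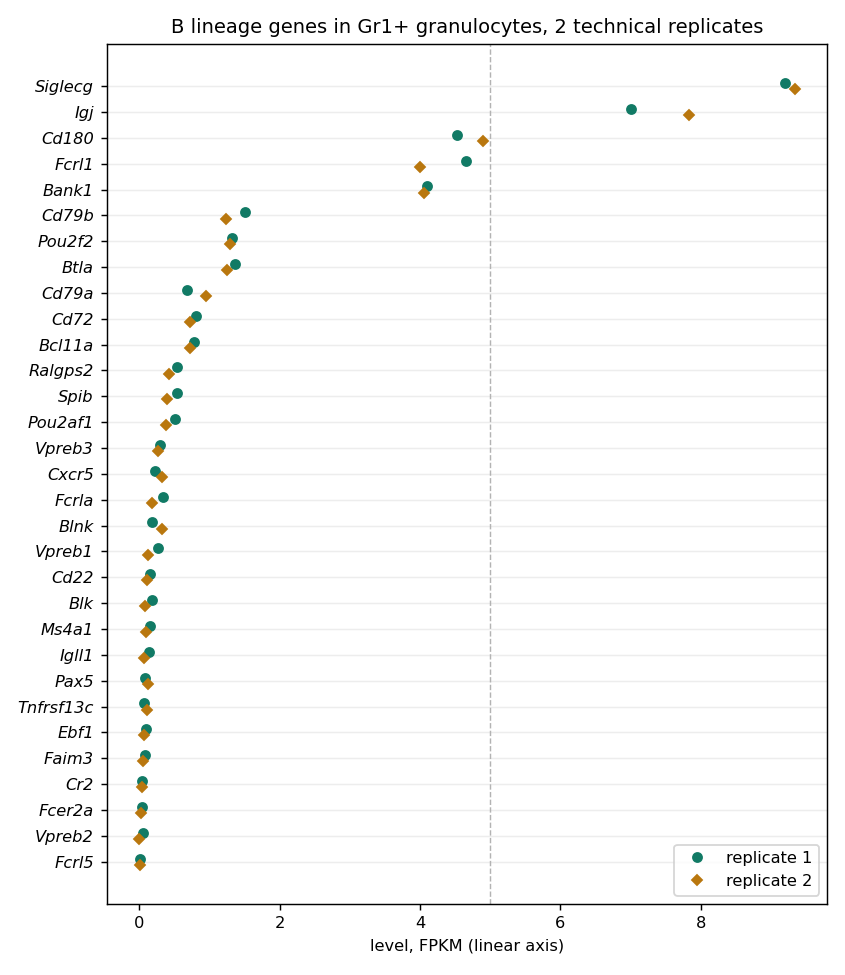
FPKM of the B lineage genes in the 2 technical replicates of the Gr1+ granulocyte sample (n = 1), ordered by level, with the 5 FPKM level marked. Siglecg and Igj exceed 5 FPKM (6.45% of the genes, beside 17.7% of all features), and 64.5% of the genes are below 0.5 FPKM, beside 66.2% of all features.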

How the data were processed

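PolyA-selected RNA was sequenced after TruSeq preparation, per the labels' protocols. The submitters' processing notes name the genome build mm9 and DESeq; the aligner, counting tool and annotation release were not given in the sources used here. The deposited FPKM columns, as scaled by the authors, were the main measure. The deposited KSL count columns were read as a signal, reads times 1 factor per library: 91.9% to 92.2% of the values that amount to 20 reads or fewer lay within 0.1 read of a whole multiple of a fixed step. The steps, 0.924, 1.03 and 1.08 for the LncHSC-1, LncHSC-2 and control libraries, gave the estimated reads. The deposited granulocyte count columns were read as a score, reads scaled and rounded, and their FPKM follow from that score with a divisor of 50 M. The column headings of the knockdown tables use working names, so each table was taken for the sample it was deposited with.

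The FPKM ratio used a pseudocount of 1 and a floor of 5 mean FPKM, with 2-fold as the rule of size. Relative depth for the read ratio came from reads per FPKM (1.17 for LncHSC-1 over control, 0.945 for LncHSC-2 over control, 1.23 for LncHSC-1 over LncHSC-2), and intervals were exact binomial ones (SciPy 1.17.1, pandas 2.3.3, NumPy 2.4.6, Python 3.11.15), tested on simulated data. Genes and the 10 gene lists were chosen with earlier results of these data known. Text values are given for genes with at least 20 summed reads, for the 2 genes of a list furthest from control in the LncHSC-1 library or its defining genes, and for the 5 genes most like the median. One result that this rule takes is not reported here. Other pseudocounts, floors, count columns, depths and subsets of genes were tried as alternatives.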

Additional observations from a re-analysis of the deposited data

How the results depend on the processing

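The median FPKM ratio of LncHSC-1 over control, 0.59, stayed above 0 under the alternatives run, at 0.48 with a pseudocount of 5, 0.65 with a floor of 1 FPKM, 0.54 with no floor and 0.65 with centred count columns. For LncHSC-1 over LncHSC-2 (0.64) the same settings gave 0.46, 0.58, 0.51 and 0.71, and the count columns as deposited 0.83. For LncHSC-2 over control (0.06) the count columns gave −0.082. With a floor of 1 FPKM, 24 of 24 genes were higher for LncHSC-1 over control, 16 of 24 for LncHSC-2 over control and 22 of 24 for LncHSC-1 over LncHSC-2. The share of all features at that floor was not computed, so nothing is read from these counts. By count columns 3 of 12 were higher for LncHSC-2 over control, where the median of all features was −0.14. The pooled read ratio of LncHSC-1 over control (0.49) was 0.61 without Bcl11a, 0.67 below the floor, 0.55 without the transcription factors, 0.59 without the genes also in the plasmacytoid dendritic list and 0.55 without genes that overlap another feature, an alternative chosen after seeing the data. That of LncHSC-1 over LncHSC-2 (0.50) was 0.57, 0.68, 0.57 and 0.55 under those settings other than the one on transcription factors. The cause of these moves was not tested. The granulocyte median was 0.300 to 0.317 FPKM with 1 technical replicate left out, and 8 genes reached a floor of 1 FPKM. No paired analysis was possible because each KSL group had 1 library. Depth limits Vpreb1, Vpreb2, Vpreb3, Igll1, Ebf1, Fcer2a and Pax5 most, and with 1 library per group no difference has a replicate check.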
